A study of Caenorhabditis elegans with 2 samples.

Results

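Binding of the DM-domain protein DMD-4 was described upstream of 5 Caenorhabditis elegans genes grouped under DNA replication and cell division: pcn-1, spd-2, ska-3, egg-5 and cdc-48.1. Except at pcn-1, other genes share the region, as given further on. The 5 genes were among 19973 annotated nuclear protein-coding genes, and they were picked from these same data for the strong ChIP-seq signal of a region upstream of their start. Their signals are therefore a description, and no test was made on them. Chromatin immunoprecipitation followed by sequencing (ChIP-seq) recovers the DNA that a protein is crosslinked to, and the deposited lists give stretches of genome with a signal for that enrichment. There was 1 group, of 2 biological replicates called replicate 1 and replicate 2, and there was no second condition. The worms were whole L2 larvae, the second larval stage, with both sexes pooled, of strain OP418 with the genotype unc-119(tm4063) III; wgIs418. The integrated transgene wgIs418 makes DMD-4 with GFP and FLAG at its C terminus, in an unc-119 mutant background, and the chromatin was sheared by sonication. The tagged protein came from a transgene and the worms were taken whole, so a signal names no cell type.

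PCN-1 is PCNA, the sliding clamp that holds DNA polymerases on their template. SPD-2 is a coiled-coil protein of centrioles and of the material around them, needed for centriole duplication and for the growth of the mitotic centrosome. SKA-3 is named as a subunit of the SKA complex, which in human cells helps kinetochores to stay on the ends of spindle microtubules. EGG-5 is an inactive tyrosine phosphatase-like protein of the oocyte cortex, which works with its paralog EGG-4 in the passage from oocyte to embryo. CDC-48.1 is, with its paralog CDC-48.2, a worm form of p97, an ATPase that unfolds and extracts ubiquitin-marked proteins, among them replication factors on chromatin. The germ line and several somatic lineages divide in L2 larvae, while oocytes are not yet made.

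The sequences at pcn-1 and cdc-48.1 are shown because their regions hold no near copy elsewhere in the genome, and because they show the letters searched for and how the promoters differ. They are ce11 (WBcel235) sequence, read 5′ to 3′ along the direction of the gene, with the start of the gene to the right. Capitals mark matches to the motifs searched, named further on. The pcn-1 stretch is chrIV:4049617-4049817, minus strand, which runs from 369 to 169 bp upstream of the start and has the peak summit at base 101. The cdc-48.1 stretch is chrII:10563450-10563650, minus strand, from 243 to 43 bp upstream, with the summit at base 101.
pcn-1: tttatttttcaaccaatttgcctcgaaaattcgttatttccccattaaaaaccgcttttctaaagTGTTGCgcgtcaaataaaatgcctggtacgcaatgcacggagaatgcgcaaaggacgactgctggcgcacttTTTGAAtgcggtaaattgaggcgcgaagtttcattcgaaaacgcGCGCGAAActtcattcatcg
cdc-48.1: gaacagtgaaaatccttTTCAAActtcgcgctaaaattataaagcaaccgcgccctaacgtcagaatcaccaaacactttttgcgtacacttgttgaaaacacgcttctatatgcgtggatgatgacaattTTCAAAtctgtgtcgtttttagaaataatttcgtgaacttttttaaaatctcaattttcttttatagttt

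The deposited ce11 lists held 17531 candidate regions for replicate 1, 18240 for replicate 2 and 11281 for the pooled replicates. The authors derived from them a list of 212 regions by the irreproducible discovery rate (IDR), which measures how well ranks repeat between replicates. They are called IDR peaks here, and 185 were nuclear and 27 mitochondrial. By signal they were the top of the pooled list, the weakest having 46.36 and the strongest region outside it 46.28. A place in the list thus does not show that a single region has like ranks in both replicates. The candidate lists include background by design, since IDR takes peaks and background as input, so a candidate region alone is not evidence of enrichment. The signal of a region is the authors' value, on a scale which the sources used here do not give, so it was compared within a list only. No read counts were used and the depth of the libraries is unknown. A region was given to a gene when its summit, the position of highest signal, was at most 2000 bp before or 500 bp after a start, or inside the gene. By that rule 5 of the 5 genes had an IDR peak, a share which the choice of the genes fixes, where 233 of all 19973 genes (1.17%) had one. Counting only the 6775 genes whose window held a candidate region, 3.44% had an IDR peak.

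All 5 genes lie on the minus strand of 4 different autosomes and have 1 annotated start each, and all 5 summits were intergenic. The deposited −log10 q-value of all 5 IDR peaks was 2.85, the tied maximum of the list, so the signal alone orders them. In the pooled list ska-3 had a signal of 143.5, cdc-48.1 143.2, egg-5 140.3, pcn-1 121.4 and spd-2 80.1. Among the 185 nuclear IDR peaks, whose signals ran from 46.4 to 251.6 with a median of 61.4, these were ranks 14, 15, 17, 23 and 55. The first 3 lay within 4 units of each other, while spd-2 stood well below the other 4 and above the median. The weakest IDR peak, on X near egl-17, had a signal of 46.36 and the strongest region outside the list, on V near C15H11.13, had 46.28. All 5 genes thus lay well inside the limit of the list. The regions next above and below the genes in signal had F55G7.5 (126.4, on X) and Y55F3AR.2 (120.0) around pcn-1, nhr-157 (80.3) above spd-2, col-185 (140.8, on X) above egg-5 and rpl-15 (140.3) below it as their nearest genes. Nearest does not mean close. The summits lay 175 bp upstream of the Y55F3AR.2 start and 348 bp upstream of that of rpl-15, but 1533 bp upstream for nhr-157 and 3484 bp for col-185. The summit near F55G7.5 was intergenic and lay past its start. The peak next above ska-3 (151.1) and the one next below spd-2 (79.4) both lay near ZK1248.17, where they overlap an SL2 RNA gene taken up further on.

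**Figure D1:**
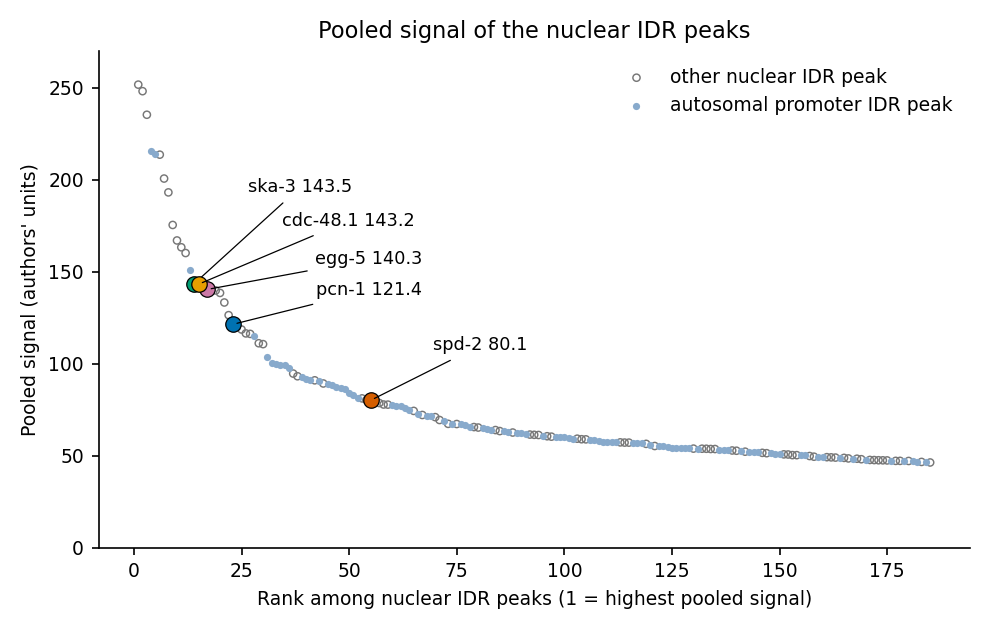
Pooled signal (y axis, authors' units) of the 185 nuclear IDR peaks by rank (x axis), with the 5 genes as large coloured points, autosomal promoter peaks as small filled points and all other nuclear peaks as open points. The peaks of ska-3, cdc-48.1, egg-5 and pcn-1 sit on the steep part of the curve at 121.4 to 143.5, and spd-2 sits at 80.1 where the curve flattens.

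Replication was represented by pcn-1 (WBGene00003955, chrIV:4047937-4049448). Its IDR peak, chrIV:4049542-4049891, had its summit 269 bp upstream of the start. The signal was 40.3 in replicate 1 and 77.6 in replicate 2, with summits 271 and 259 bp upstream. Among the same 185 nuclear IDR peaks these were rank 68 in replicate 1 and rank 14 in replicate 2. The summits of all lists thus fell within 12 bp, but the peak stood much higher in replicate 2 than in replicate 1. The next gene upstream, the hedgehog-related wrt-5, is transcribed in the same direction and its end lies 289 bp from the summit. No other annotated gene had the summit in its window, so pcn-1 was the only one of the 5 whose region was shared with no other gene.

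The centrosome gene spd-2 (WBGene00004953, chrI:8966985-8970081) had its IDR peak at chrI:8969982-8970331, with the summit 76 bp upstream, the shortest distance of the 5. In replicate 1 it had 32.1 and in replicate 2 46.5, which were ranks 103 and 39 of 185, with summits 110 and 76 bp upstream. It was the weakest of the 5 in both replicates. The gene is arranged head to head with F32H2.10, whose start lies 209 bp away and 134 bp from the summit. The start of thoc-3, which encodes a subunit of the THO complex of mRNA export, lies 982 bp from the summit. The peak covers the first bases of spd-2 and reaches into F32H2.10, so these lists cannot assign it to one of the pair.

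The kinetochore gene ska-3 (WBGene00018830, chrIII:5677969-5679005) had an IDR peak of only 124 bp, chrIII:5679077-5679200, with its summit 124 bp upstream. That width is of the pooled list, and the region was 344 bp wide in replicate 1 and 350 bp in replicate 2. Its signal was 85.7 in replicate 1 and 53.7 in replicate 2, ranks 12 and 29 of 185, with summits 126 and 129 bp upstream. The summits of all 3 lists thus fell within 5 bp, and here replicate 1 gave the higher rank. On the other side of a gap of 292 bp starts rps-12, which encodes a protein of the small ribosomal subunit, 169 bp from the summit. The lists do not separate ska-3 from rps-12. Other annotated genes with this summit in their windows were pst-2, a sulfate donor transporter, at 1304 bp, F54E7.9 at 1239 bp, and the snoRNA genes F54E7.10 and F54E7.11 at 249 and 616 bp. A weak region of replicate 1, with 10.7, lay in the coding sequence of pst-2.

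The gene egg-5 (WBGene00020035, chrI:4168984-4171589) had the most distant summit of the 5, 760 bp upstream, in an IDR peak at chrI:4172174-4172523. Replicate 1 had 2 overlapping regions there, with signals of 48.36 and 46.31 and summits 566 and 779 bp upstream. Replicate 2 had regions of 90.6 and 27.3 with summits 758 and 957 bp upstream. By its strongest region the peak was rank 42 of 185 in replicate 1 and rank 10 in replicate 2. The strongest summits of the replicates thus lay 192 bp apart, while for the other 4 genes they lay at most 34 bp apart. The second region of replicate 1, nearly as strong as its first, had its summit at 779 bp, near the 758 bp of replicate 2. The peak contains the whole of sls-2.4 (chrI:4172206-4172315, plus strand), a gene for the SL2 RNA that is spliced onto the mRNAs of downstream genes in operons, and the non-coding R12E2.18 antisense to it. The pooled summit lay 34 bp past the end of sls-2.4 and 89 bp from the end of R12E2.11, a gene that runs toward egg-5 in the same direction. The nearer summit of replicate 1 lay 51 bp upstream of the sls-2.4 start. By distance the region thus belongs to sls-2.4 before egg-5, and it was called an egg-5 region only through the wide window.

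The AAA ATPase gene cdc-48.1 (WBGene00007352, chrII:10560036-10563407) had an IDR peak of 111 bp at chrII:10563505-10563615, with its summit 143 bp upstream. Here too the narrow width is of the pooled list, against 344 bp in replicate 1 and 350 bp in replicate 2. The signal was 93.3 in replicate 1 and 53.0 in replicate 2, ranks 11 and 30 of 185, with summits 158 and 165 bp upstream. As for ska-3, replicate 1 gave the higher rank. The next gene upstream, C06A1.6, runs in the same direction and ends 562 bp from the summit, and the start of C06A1.7 lies 1341 bp away. The snoRNA gene C06A1.9, inside a cdc-48.1 intron, has its start 486 bp from the summit, and replicate 2 alone had a weak region of 8.74 in that intron. The nearest protein-coding start was that of cdc-48.1.

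**Figure D2:**
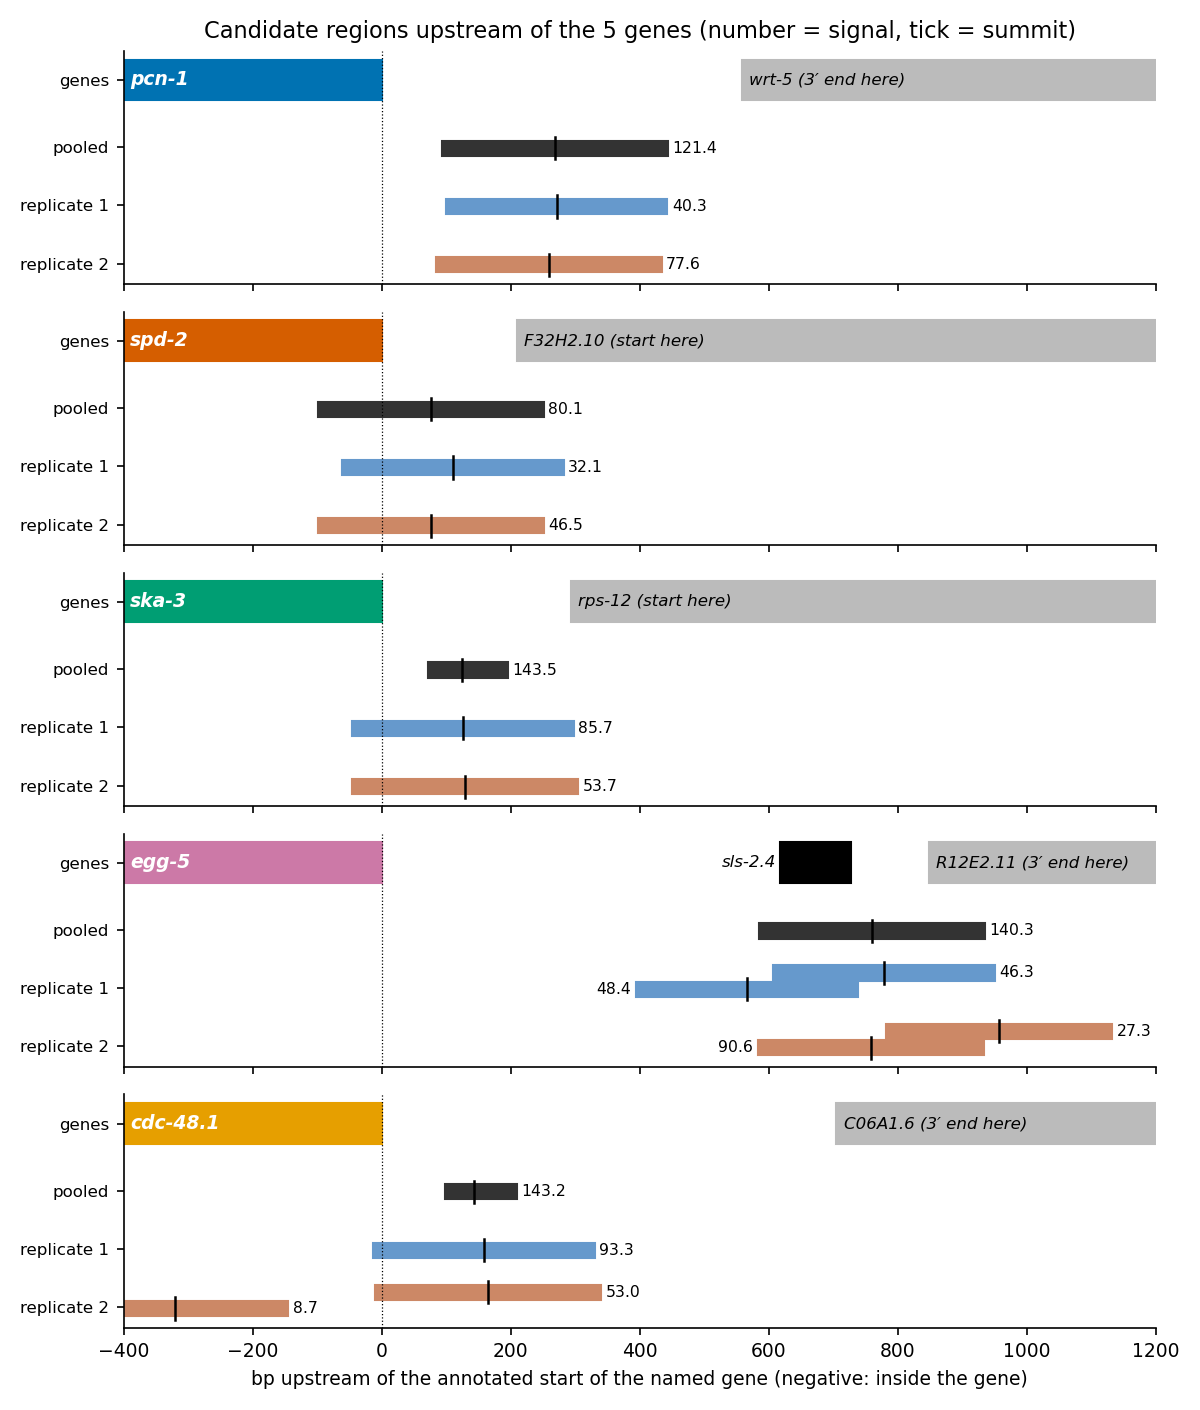
Map of the 5 promoters, with distance upstream of each gene's start on the x axis in bp and a row each for genes, pooled regions and the regions of both replicates. Bars are regions labelled with their signal in the authors' units, and ticks are summits. Summits lie within 22 bp across lists at pcn-1, ska-3 and cdc-48.1 and within 34 bp at spd-2, and split around the black sls-2.4 gene at egg-5.

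The replicates ordered the 5 genes differently. The 2 genes with peaks under 350 bp, ska-3 and cdc-48.1, ranked higher among the nuclear IDR peaks in replicate 1, and the 3 genes with peaks of 350 bp, pcn-1, egg-5 and spd-2, ranked higher in replicate 2. Whether the lists of both replicates share a scale is not known, so a ratio between them is read only by its place among all peaks. The log2 ratio of replicate 1 over replicate 2 was −0.95 for pcn-1, −0.90 for egg-5 and −0.54 for spd-2, ranks 178, 177 and 167 of 185 from the highest. It was 0.82 for cdc-48.1 and 0.67 for ska-3, ranks 25 and 39. Over all 185 peaks the median was 0.18, with quartiles of −0.17 and 0.59, so all 5 genes lay outside the middle range of the peaks. Peaks under 350 bp were 11 of the 185, all with pooled signals from 118.6 to 251.6, and 4 of them, ska-3 and cdc-48.1 included, were autosomal promoter peaks. The median log2 ratio was 0.47 over the 11 peaks under 350 bp. It was 0.17 over the 174 peaks of 350 bp, so the low ratios of pcn-1, egg-5 and spd-2 were not typical of that width. Width, taken from the pooled list, and replicate ratio were both looked at after the values were seen, and nothing was tested.

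**Figure D3:**
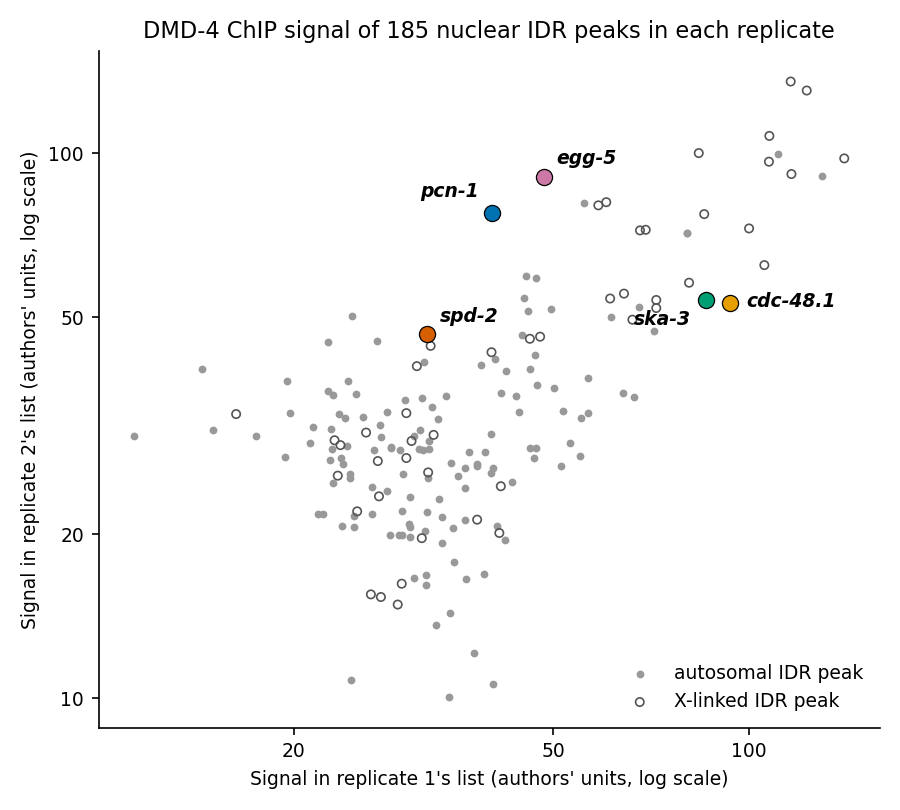
Signal of each nuclear IDR peak in replicate 1's list (x axis) and in replicate 2's list (y axis), both in the authors' units on log scales, with the 5 genes as large coloured points, autosomal peaks as grey points and X-linked peaks as open circles. The genes pcn-1, egg-5 and spd-2 lie on the upper left edge of the cloud, while ska-3 and cdc-48.1 lie together on its right.

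The summits of pcn-1, spd-2, ska-3 and cdc-48.1, at 76 to 269 bp, lay in the range of the 99 autosomal promoter IDR peaks (summits at most 1000 bp before or 200 bp after a start), whose median distance was 196 bp with quartiles of 120 and 303.5 bp. Only spd-2 was closer than the lower quartile, and only egg-5 farther than the upper one. The distances rest on annotated starts, and in this species an annotated start is often the site where a leader RNA is trans-spliced on rather than the first transcribed base. All 5 annotated starts follow the bases AG, as 26.4% of 29304 annotated starts did, and only ska-3 follows the full acceptor-like TTTCAG. The first coding base lay 13 bp after the start in pcn-1, 10 bp in spd-2, 17 bp in ska-3 and cdc-48.1, and 2 bp in egg-5, against a median of 13 bp over 29414 transcript starts. The true distances from the first transcribed base may therefore be shorter than those given, by an amount not measured here.

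Base composition and motifs were read within 100 bp of each summit. GC content was 43.3% at pcn-1, 41.3% at ska-3, 36.3% at egg-5, 33.3% at cdc-48.1 and 32.3% at spd-2. The median was 38.8% over the 99 autosomal promoter IDR peaks, with quartiles of 34.8% and 44.03%, and 30.8% over 2919 autosomal promoter candidates outside the IDR list. The windows of pcn-1 and ska-3 were thus above both medians, and those of cdc-48.1 and spd-2 were below the lower quartile of the IDR peaks.

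The 10 motifs searched on both strands gave few matches at the 5 genes. The DM-domain core ACAATGT was at none of them, and was in 3.03% of the 99 autosomal promoter IDR peaks and 3.01% of the 2919 candidates outside the list. The core TGTTGC bound by the related worm protein MAB-3 matched at pcn-1 alone, 33 bp from the summit, and was in 12.1% of the peaks and 7.43% of the candidates. Of the E2F-like letters TTTCGCGC, TTTCCCGC and TTTGGCGC, TTTCGCGC matched once, at pcn-1, 84 bp from the summit on the side of the gene. That motif was in 6.06% of the peaks and 1.3% of the candidates, TTTCCCGC in 4.04% and 1.03%, and TTTGGCGC in 0% and 0.685%. The cell cycle homology letters TTTGAA matched once at pcn-1, spd-2 and ska-3 and at 2 places at cdc-48.1, but 59.6% of the peaks and 56.6% of the candidates hold this short motif. The letters CTTGCGC (19.2% of the peaks, 1.16% of the candidates), CCCTGCG (4.04% and 0.137%) and GCAGGGA (6.06% and 0.48%), chosen from earlier results of these data, were at none of the 5 genes, nor was GAGAGAGA (1.01% and 1.99%). Motif matches overlap no other match at these genes. The egg-5 window held none of the 10 motifs, and a missing match says only that these letters were not within 100 bp of the summit.

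No 7-mer was shared by 4 or more of the 5 windows, counting both strands. There were 14 7-mers shared by 3 windows, most of them rich in A and T, such as TTAAAAA at pcn-1, spd-2 and cdc-48.1, which 35.4% of the autosomal promoter peaks and 41.3% of the candidates hold. The least common of them among the candidates were GTACGCA, at the same 3 genes (6.06% of the peaks, 2.06% of the candidates), and AAACGAC, at spd-2, egg-5 and cdc-48.1 (6.06% and 2.64%). They were picked from all 7-mers after the windows were read, so their sharing is a description.

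Copies elsewhere in the genome were looked for because reads from near-identical sequences cannot be placed with certainty. The regions of pcn-1, spd-2, ska-3 and cdc-48.1 had 0 other matches of at least 90% identity over 50 bp. The egg-5 region had 2, of which the best was 95.0% identical over 121 bp to the sls-2.3 gene on chromosome II. The sources used here do not say how reads with several matches were treated, and the part of such reads in the egg-5 signal was not tested. Of the near copies of the sls-2.4 gene, sls-2.2 (96.4% identical) had an IDR peak of 110.6 and sls-2.1 (90.9%) had one of 151.1. No pooled region overlapped sls-2.3 (95.5%), and the nearest, of 13.96, lay between it and sls-2.2. The paralogs egg-4 and cdc-48.2 had no candidate region in their windows in the pooled list. The 300 bp before the starts of egg-5 and egg-4, and those before cdc-48.1 and cdc-48.2, had 0 matches of that kind elsewhere.

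The SL2 RNA genes were looked at as a set after sls-2.4 was found inside the egg-5 peak. Of 18 annotated SL2 RNA genes, 9 (50%) had a pooled candidate region within 100 bp and 4 (22.2%) an IDR peak. Of 7664 other nuclear non-coding RNA genes of at most 200 bp, piRNA genes left out, 9.88% had a candidate region and 0.431% an IDR peak. The 4 genes were sls-2.1, with 2 peaks of 151.1 and 79.4, sls-2.4, sls-2.2 with 110.6 and sls-2.8 with 64.1. At sls-2.1 the strongest region had 80.1 in replicate 1 and 71.5 in replicate 2, and the values were 71.3 and 47.1 at sls-2.2 and 42.2 and 19.5 at sls-2.8. The set was chosen after a value was seen and its genes resemble each other, sls-2.2 and sls-2.4 being 96.4% identical, so these shares are a description.

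**Figure D4:**
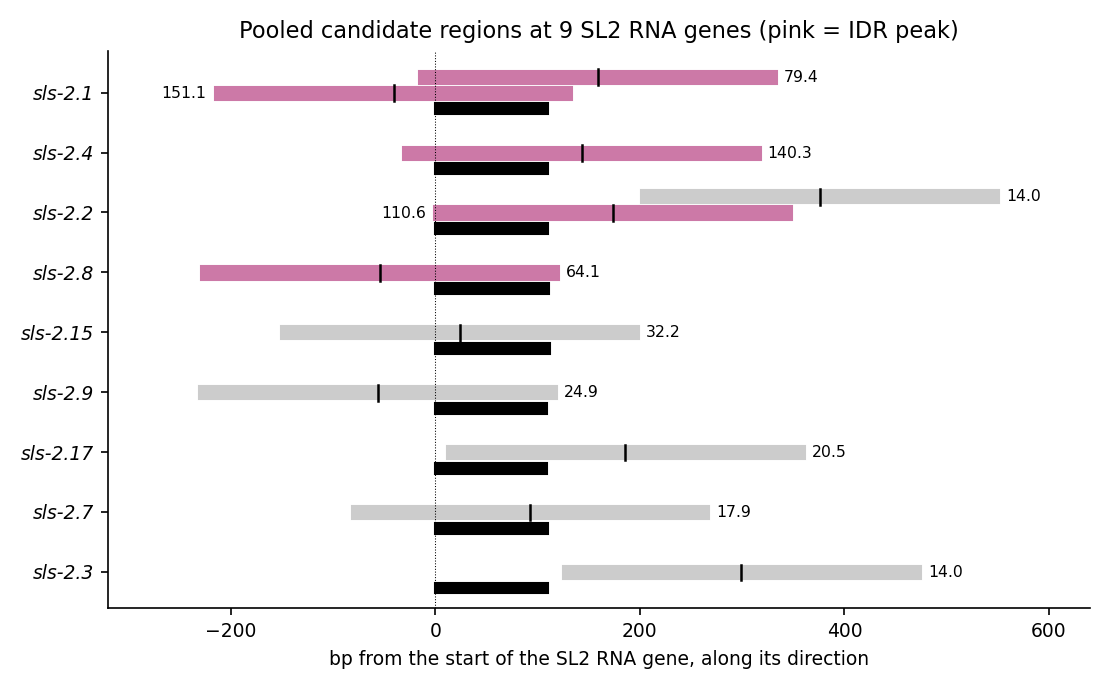
Pooled candidate regions at the 9 SL2 RNA genes that have one within 100 bp, drawn against distance in bp from the start of the SL2 RNA gene along its direction (x axis), 1 gene per row. Black bars are the genes, pink bars IDR peaks and grey bars other candidates, each with its signal in the authors' units, and ticks are summits. The peak of sls-2.4, called an egg-5 region by the window, has 140.3 and lies over the gene as those of sls-2.1, sls-2.2 and sls-2.8 do.

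The 5 genes were set against 6 lists of genes of the same processes. Of 209 listed genes 199 were found in the annotation, 74 of them (37.2%) had a candidate region in the window, against 33.9% of all nuclear protein-coding genes, and 9 had an IDR peak. The 9 are the 5 genes and 4 others. Without the 5 genes, 69 of 194 had a candidate region and 4 an IDR peak, which is 2.06% of the 194 and 5.8% of the 69, against 1.17% and 3.44% of all nuclear protein-coding genes. The median of the highest pooled signal was 18.2 for the 69 genes and 17.9 for all 6775 genes with a region. A difference of this size on 4 genes was not tested, and nothing particular to cell division genes is read from it.

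The other DNA replication genes with an IDR peak were cdc-6, whose product helps to load the replicative helicase, and tim-1, related to the replication fork protein Timeless. At cdc-6 the pooled signal was 61.7, with 24.9 in replicate 1 and 36.1 in replicate 2, and the summit was 284 bp upstream of cdc-6 but only 95 bp from the start of acin-1. At tim-1 the pooled signal was 64.1, with 42.2 in replicate 1 and 19.5 in replicate 2, and the summit was 247 bp upstream. The tim-1 peak, like that of egg-5, contains a whole SL2 RNA gene, sls-2.8, with the summit 54 bp upstream of its start. The next signals were 38.4 at ctf-4, an adapter of the replication fork, and 27.6 at pole-2, a subunit of polymerase epsilon. Their summits lay 114 and 1649 bp upstream. The pooled region of ctf-4 overlapped no region of either replicate. In all, 21 of 47 replication genes had a candidate region and 3 an IDR peak, with a median best signal of 17.7, and none of the helicase genes mcm-2 to mcm-7 had one.

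Among centrosome and spindle genes 8 of 33 had a candidate region, with a median of 25.15, and spd-2 was the only one with an IDR peak. The next were klp-18, a kinesin of the meiotic spindle, with 32.0, and sas-7, a centriole assembly gene, with 29.8. The klp-18 summit lay 518 bp upstream, and that of sas-7 lay in its 3′ untranslated part. Of other centriole and centrosome assembly genes, sas-5 had 27.2, with the summit 106 bp upstream, and sas-4 had 15.8, with the summit in an intron. The genes spd-5, zyg-1, sas-6 and the gamma-tubulin gene tbg-1 had no candidate region. Among kinetochore and segregation genes 16 of 40 had a candidate region, with a median of 19.7, and ska-3 and kbp-4 had IDR peaks. At kbp-4, a kinetochore gene, the pooled signal was 53.3, with 22.9 in replicate 1 and 28.7 in replicate 2. Its summit, 141 bp upstream, lay in the first transcribed bases of the divergent gene rab-18, and the start of the polarity gene par-2 was 641 bp away. The condensin gene mix-1 had 39.7, at a summit in its own coding sequence, and knl-3 had 37.1, at a summit in the 5′ untranslated part of T10B5.3. Both were outside the IDR list. The partner gene ska-1 had a weak region of 15.3 at 82 bp upstream.

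Among kinases, cyclins and the anaphase-promoting complex 17 of 44 had a candidate region, with a median of 16.01. The one IDR peak was at efl-1, which encodes an E2F family factor, with 55.2 in the pooled list, 22.8 in replicate 1 and 31.2 in replicate 2. Its summit lay 195 bp upstream, and the start of fbxa-90 was 944 bp away. The next signals were 39.5 at cul-4, a ubiquitin ligase scaffold, and 38.1 at wee-1.3, an inhibitory kinase of the oocyte. Among egg surface and egg activation genes 7 of 20 had a candidate region, with a median of 23.1, and egg-5 had the one IDR peak. The eggshell proteoglycan gene cpg-1 had 37.0, with the summit 1891 bp upstream. The gene mbk-2, whose kinase product EGG-5 binds, had 30.9, with the summit in an intron and no matching region in replicate 2. Among CDC-48 and its cofactors 6 of 16 had a candidate region, with a median of 17.3. The genes next to cdc-48.1 were ubxn-4 with 20.2, at a summit inside cyy-1, and ufd-2 with 18.3, at a summit in the coding sequence of T05H10.8. No candidate region was listed at ufd-1, npl-4.1 or npl-4.2, the core cofactors of CDC-48. In each of the 6 lists the IDR peaks were thus at 1 to 3 genes.

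**Figure D5:**
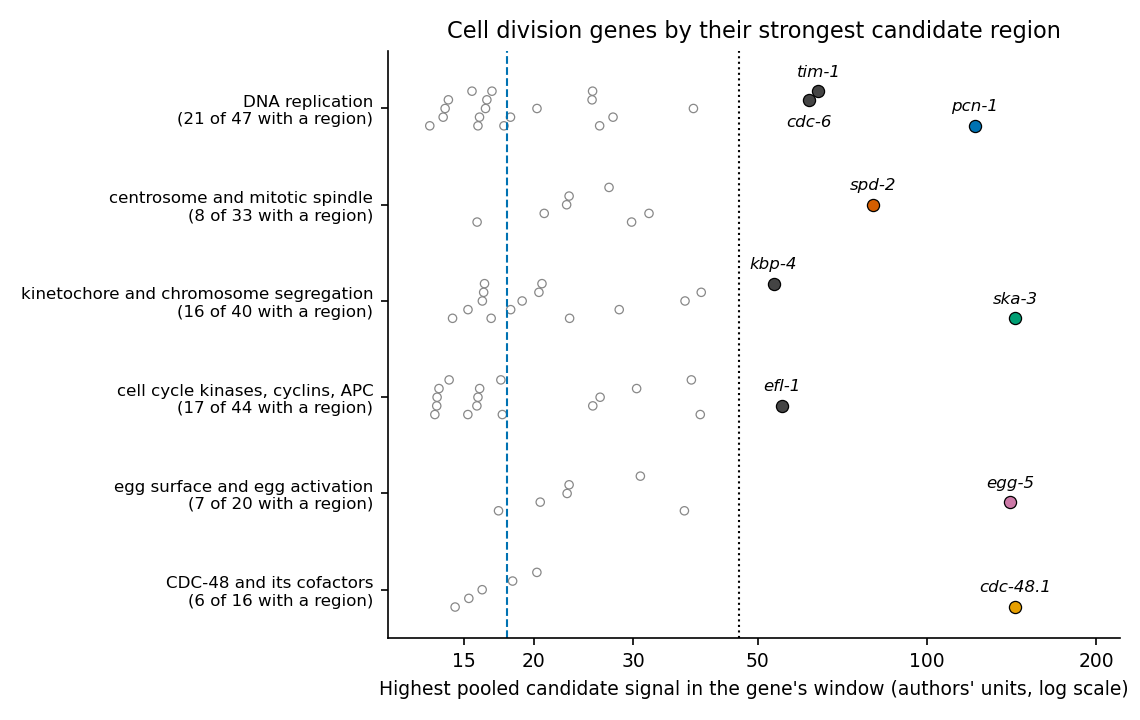
Highest pooled signal in the window of each listed gene with a candidate region (x axis, authors' units, log scale), 1 row per list, with genes that have an IDR peak as filled, named points and all others as open points. The dashed line is the median of all nuclear protein-coding genes with a region (17.9) and the dotted line the weakest IDR peak (46.36). The 5 genes lie at 80.1 to 143.5, and the other 4 with an IDR peak lie at 53.3 to 64.1.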

How the data were processed

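The 2 biological replicates of 1 group were used, as peak lists only. Per the labels these are separate biological replicates. Per the deposited file descriptions, candidate lists were made from each replicate, and from both pooled, against a control alignment, and IDR was run on them. The aligner, peak caller, versions, IDR threshold and scale were not given in the sources used here. Each region's deposited signal is the authors' enrichment value, and the deposited −log10 q-value is tied at its maximum in all IDR peaks. Depth is unknown.

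The members and gene lists were chosen with earlier results of these data known. Genes named in the text are the 5 genes, genes whose window holds their summit, listed genes with an IDR peak, the next 2 per list, paralogs, and peaks next in rank; further listed genes and the SL2 RNA genes were named after their values were seen. Genes came from Ensembl release 115 (WBcel235, the sequence of ce11), and starts are the 5′ ends of transcripts. Copies were searched with BLAST 2.17.0 at an E-value limit of 1e-05. Analyses used Python 3.11.15, numpy 2.4.6 and pandas 2.3.3, with matplotlib 3.10.9 for figures. Window assignment was tested on simulated data with planted summits. A replicate's region matched a peak when it overlapped it by at least 1 bp, and the highest signal was taken. Alternatives were other windows, nearest protein-coding start, the stronger IDR peaks, either replicate without the other, and different overlaps and summit windows. Of the listed symbols, 10 were not in the annotation and were left out. The ce10 lists were not used.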

Additional observations from a re-analysis of the deposited data

How the results depend on the processing

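All 5 genes had an IDR peak within 1000 bp upstream to 200 bp downstream, and when each region went to the nearest protein-coding start only. Non-coding starts were not counted there, though that of R12E2.18 lay 43 bp from the egg-5 summit and that of sls-2.4 was also nearer. All 5 genes also had a peak among the stronger IDR peaks, those above the median signal. With 500 bp upstream to 100 bp downstream, 4 had an IDR peak, and the one lost was egg-5. With replicate 1 or replicate 2 left out and the strongest 212 regions of the other taken, the count was 5 to 5, and it was the same with nuclear regions alone, an alternative chosen after seeing the data. The 5 genes were picked for strong regions in these same lists. Their counts among the stronger IDR peaks and with a replicate left out therefore follow from that choice. For the listed genes the count of 9 became 6 to 9 with a replicate left out, while that of all nuclear protein-coding genes went from 233 to 211 without replicate 2 and 227 without replicate 1. Without replicate 2 the count of listed genes was 6, without cdc-6, kbp-4 and efl-1, and without replicate 1 it was 9, with mix-1 in place of tim-1. It was 7 with the nearest protein-coding start only, where cdc-6 and kbp-4 went to acin-1 and rab-18. There tim-1 stayed, although the start of the non-coding sls-2.8 was nearer. It was 8 in the narrowest window and 5 among the stronger IDR peaks, a set which holds fewer regions by construction. Over all nuclear protein-coding genes the count was 233 as reported and 163 within 1000 bp upstream to 200 bp downstream. It was 136 with the nearest protein-coding start, 128 in the narrowest window and 99 among the stronger IDR peaks. Matches between motif and gene numbered 6 within 100 bp, 3 within 50 bp and 7 within 250 bp, where the ACAATGT core appeared at ska-3. In that wider window the core was in 8.08% of the autosomal promoter IDR peaks and 8.15% of the autosomal promoter candidates outside the list. All 10 pairs of gene and replicate had a matching region under each overlap rule. No paired analysis was possible because there was 1 group. Counting error could not be given, since depth is unknown, and 2 replicates limit what the replicate values can show.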
